A study of Mus musculus with 8 samples.

Results

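The clustered replication-dependent histone genes were described in RNA sequencing of embryonic mouse hearts of the C57BL/6 strain, taken at embryonic day 9.5. The genes were chosen by symbol (Hist1h to Hist4h names, or their newer forms), with 3 pseudogenes left out. The choice was made with the levels per library already known, among them a high level in Male replicate 2. This gave 65 of the 49315 genes counted: 6 of the linker histone H1, 18 of H2A, 16 of H2B, 12 of H3 and 13 of H4. There were 4 male and 4 female libraries, all from unmanipulated C57BL/6 hearts of the same age, and sex had been read by genotyping Sry in tissue other than the heart. Total RNA went into a TruSeq RNA kit of Illumina. Neither the number of hearts behind a library nor the litters are stated, so the p-values reflect only how far these libraries differ from each other, which may be partly technical. In bulk samples such as these, fewer cells of a type and less RNA per cell cannot be told apart.

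Core histones H2A, H2B, H3 and H4 form the protein spool of the nucleosome, and H1 binds the DNA between spools. Dividing cells make most of this protein during S phase, when new DNA has to be packed, from gene copies that lie side by side in clusters and mostly have no intron. Their mRNAs normally end in a conserved stem-loop, bound by the stem-loop binding protein Slbp, in place of a poly(A) tail, and are destroyed when replication stops. Some members are also known to give spliced, extended or polyadenylated transcripts, mainly in cells that have stopped dividing. Replacement histones such as H3.3 and H2A.Z come from genes outside the clusters, are made through the cell cycle and carry a tail.

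On GRCm38, cluster 1 held 52 members at chr13:21715763-23934851. Cluster 2 held 10 members at chr3:96219865-96270132, cluster 3 held 2 at chr11:58948920-58956830, and cluster 4 was the single gene Hist4h4 at chr6:136801553-136804415. Counts above 0 were found for 57 members, and 8 members had 0 counts in every library: Hist1h2aa, Hist2h2aa1, Hist2h2aa2, Hist1h2ba, Hist1h2bq, Hist2h2bb, Hist2h3b and Hist2h3c1. Of these, Hist1h2aa and Hist1h2ba are testis forms of H2A and H2B. The testis linker histone Hist1h1t had 23 counts over all libraries together. A filter on low counts was passed by 44 members, which are the ones tested; the other 13 with counts had 2 to 110 counts over all libraries.

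Total counts ranged from 20105913 to 51134291 per library and the members together took 2023 to 6424 of them. Levels below are CPM, a gene's counts per 1000000 counts of its library after scaling by TMM factors. The TMM factor was 0.864 in Male replicate 2 and 0.982 to 1.07 in the other 7 libraries. All 8 cardiac muscle markers passed the filter, and their summed level was 55702 CPM in Male replicate 2 and 33609 to 44406 CPM in the other 7 libraries. The primitive erythroid list summed to 7124 CPM in Male replicate 2 and 4669 to 12379 CPM elsewhere. The foregut list stood at 529 CPM in Male replicate 2 against 223 to 423 CPM, mostly from Krt8 (311 CPM) and Krt18 (196 CPM). Its other 6 genes (Epcam, Cdh1, Shh, Foxa1, Sox2 and Foxa2) were each highest in Female replicate 1. All 8 were above the median of the other 7 libraries in Male replicate 2, by ratios of 1.39 to 7.39 with a median of 2.09. In the same order of libraries, the endothelial list stood at 267 against 300.2 to 409 CPM, the neural list at 11.6 against 8.92 to 24.0 CPM, the neural crest list at 3.58 against 1.23 to 2.89 CPM and the hepatic and yolk sac list at 26.6 against 0.622 to 68.5 CPM. Whether these lists have a part in the histone levels was not tested.

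Summed over all 65 members, the level was 100.3, 187, 89.4 and 111 CPM in Male replicates 1 to 4, and 120.3, 111, 136 and 82.8 CPM in Female replicates 1 to 4. Male replicate 2 was the highest library, Female replicate 3 came next and Female replicate 4 was the lowest. Leaving Male replicate 2 aside, the male values lay inside the female range. The mean was 122 ± 44.3 CPM in males and 112 ± 22.5 CPM in females (SD, n = 4 each). Male replicate 2 was 1.69 times the median of the other 7 libraries. This ratio is a description and was not tested, since the members were chosen with it in view.

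All 5 histone types were highest in Male replicate 2, but not by the same factor. H3 genes summed to 26.0 CPM there against 8.08 to 15.9 CPM in the other 7 libraries, 2.24 times their median. H4 genes summed to 43.7 CPM against 15.7 to 32.0 CPM, a ratio of 1.97, and H2A genes to 46.1 CPM against 17.7 to 30.5 CPM, a ratio of 1.83. The ratio was 1.55 for H1, at 30.6 CPM against 17.0 to 23.6 CPM, and 1.40 for H2B, at 40.8 CPM against 24.1 to 34.3 CPM. H3 accordingly made up 13.9% of the histone CPM in Male replicate 2 and 9.77% to 12.0% elsewhere, while H2B made up 21.8% there and 24.8% to 29.3% elsewhere.

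**Figure D1:**
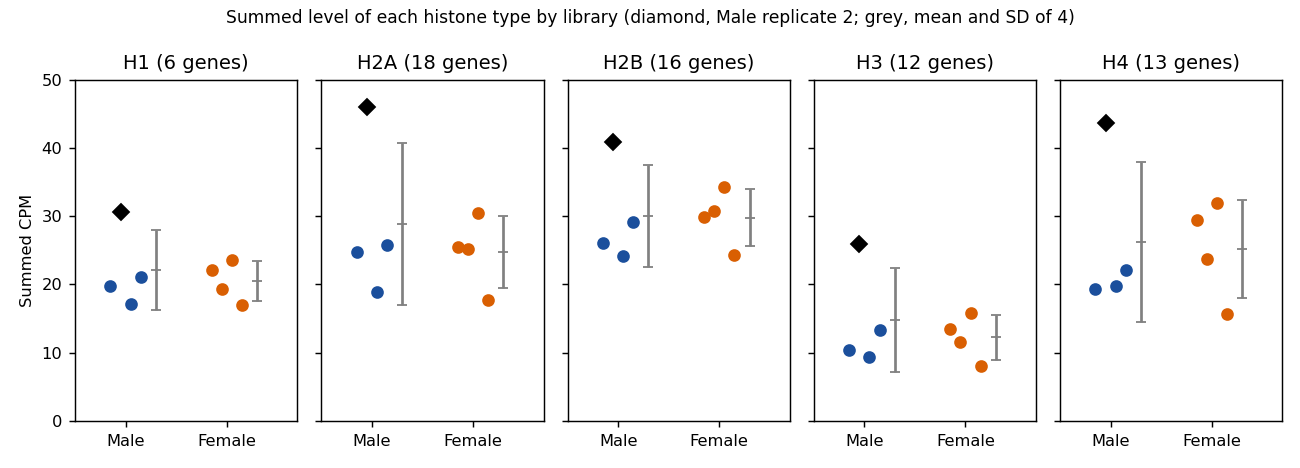
Summed CPM of the genes of each histone type, 1 point per library, males left of females in each panel; the black diamond is Male replicate 2 and the grey bar is the mean and SD of 4 libraries. In every panel the diamond lies above the other 7 libraries, from 26.0 CPM for H3 to 46.1 CPM for H2A.

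Between types, the order depended on whether counted length was taken into account. Averaged over 8 libraries, H2B summed to 29.9 CPM, H2A to 26.8, H4 to 25.7, H1 to 21.3 and H3 to 13.5 CPM. Per kb of counted length, H4 stood at 42.3, H2B at 41.9 and H2A at 41.8 CPM per kb, which is well within the spread of the libraries for each of these 3 types. H3 followed with 25.2 CPM per kb, within a range of 15.4 to 46.7 over the libraries, and H1 was lowest with 15.8 CPM per kb, within 11.8 to 26.4. H1 was below H2A, H2B, H3 and H4 on this scale in every library, and H3 was below H2A, H2B and H4 in every library. A nucleosome holds equal numbers of the 4 core histones and about 1 H1. Those are numbers of protein and were not compared with the RNA levels here.

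A few genes carried over 50% of the histone CPM in each of the 8 libraries. The 8 members with the highest mean CPM, not corrected for length, were Hist1h1c, Hist1h4i, Hist1h2bc, Hist3h2a, Hist1h3c, Hist1h2ae, Hist2h2be and Hist3h2ba, and together they gave 53.4% of the histone CPM in Male replicate 2 and 66.2% to 74.7% in the other libraries. Their sum in Male replicate 2 was 1.32 times the median of the other 7 libraries, which ran from 61.8 to 90.3 CPM. The remaining 57 members summed to 87.2 CPM in Male replicate 2 against 21.0 to 46.0 CPM, a ratio of 3.01. With those 8 genes set aside, the ratio was 5.19 for H1, 3.21 for H4, 3.08 for H3, 2.58 for H2A and 2.43 for H2B. The split into 8 and 57 was made after the values were seen and has no test.

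**Figure D2:**
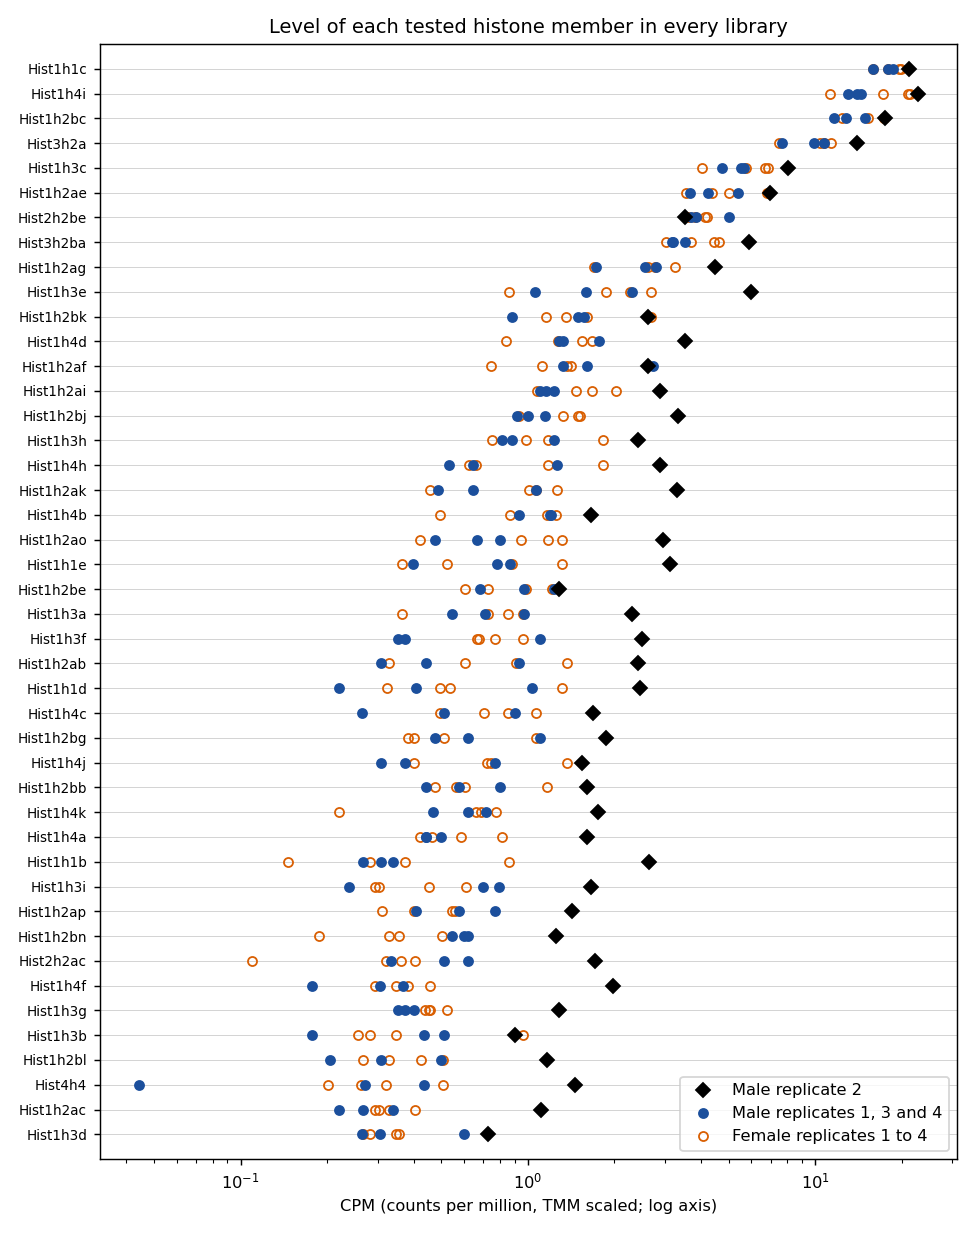
CPM (log axis) of each of the 44 tested members, ordered by mean level, 1 point per library. Male replicate 2, the black diamond, is the highest library for 40 of the 44 members, and its distance from the others is wider among the members at the bottom than among those at the top.

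Among linker histones, Hist1h1c, which encodes H1.2, had the highest level per length (11.8 CPM per kb, against 1.38 for Hist1h1e) and varied least. Hist1h1c was at 17.9, 21.3, 15.9 and 18.7 CPM in Male replicates 1 to 4, and at 19.9, 18.0, 19.6 and 15.9 CPM in Female replicates 1 to 4. The libraries lie within a narrow band and the groups overlap. Hist1h1e (H1.4) was at 0.782, 3.12, 0.398 and 0.867 CPM in the males and 0.881, 0.524, 1.32 and 0.366 CPM in the females. Male replicate 2 is more than 2 times any other library there, and Female replicate 3 is second. Hist1h1d (H1.3) was at 0.408, 2.45, 0.221 and 1.03 CPM in the males and 0.534, 0.322, 1.32 and 0.494 CPM in the females, with the same 2 libraries at the top. The gene with the largest ratio of all tested members was Hist1h1b (H1.5), at 0.340, 2.65, 0.309 and 0.267 CPM in the males and 0.374, 0.282, 0.862 and 0.146 CPM in the females. It had 91 counts in Male replicate 2 and 7 to 17 in each other library, and its ratio to their median CPM was 8.57.

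Hist1h4i, an H4 gene of cluster 1, had the highest level per length of all members, 23.2 CPM per kb. It was at 13.1, 22.9, 14.4 and 13.9 CPM in Male replicates 1 to 4, and at 21.0, 17.2, 21.4 and 11.3 CPM in Female replicates 1 to 4. Male replicate 2 and 2 of the female libraries lie close together at the top. The other males lie low, and Female replicate 4 is the lowest library at 11.3 CPM. The next H4 genes per length were Hist1h4d (4.21 CPM per kb), Hist1h4b (2.76) and Hist1h4h (2.54). Hist1h4h was at 0.646, 2.88, 0.530 and 1.27 CPM in the males and 1.18, 0.625, 1.82 and 0.658 CPM in the females, whereas Hist1h4b reached only 1.66 CPM in Male replicate 2, 1.42 times the median of the others. Hist1h4f was at 0.306, 1.98, 0.177 and 0.367 CPM in the males and 0.347, 0.383, 0.456 and 0.293 CPM in the females, so that only Male replicate 2 stands apart, at 5.71 times the median. Hist4h4, the gene of cluster 4, had 50 counts in Male replicate 2 and 1 to 13 in each other library, and a ratio of 5.36. Hist4h4 passed the filter on low counts only with Male replicate 2 included, so its place among the tested members rests on that library.

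The H2A gene with the highest CPM, a level not corrected for length, was Hist3h2a of cluster 3, at 10.8, 14.0, 7.64 and 9.91 CPM in Male replicates 1 to 4, and 10.7, 11.4, 10.4 and 7.48 CPM in Female replicates 1 to 4. Per length, Hist1h2ae came first among the H2A genes with 10.9 CPM per kb, followed by Hist1h2ag with 5.65, Hist3h2a with 4.79 and Hist1h2af with 4.05. Hist1h2ae was at 4.25, 6.99, 3.67 and 5.40 CPM in the males and 5.02, 4.39, 6.79 and 3.57 CPM in the females, with Male replicate 2 and Female replicate 3 nearly level. Hist1h2af had another order: 2.72, 2.62, 1.33 and 1.60 CPM in the males and 1.12, 0.745, 1.42 and 1.37 CPM in the females, so that Male replicate 1 was the highest and Male replicate 3 lay inside the female range. Hist2h2ac, of cluster 2, was at 0.510, 1.72, 0.619 and 0.334 CPM in the males and 0.320, 0.363, 0.405 and 0.110 CPM in the females, with a ratio of 4.74. The exons of all 18 H2A members, and of 5 other members, overlap those of another listed gene, and no source used here gives the strand setting of the counting, so reads of such pairs cannot be told apart.

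Hist1h2bc led the H2B genes with 20.3 CPM per kb. It was at 12.8, 17.5, 11.7 and 15.0 CPM in Male replicates 1 to 4, and at 15.3, 17.4, 17.3 and 12.4 CPM in Female replicates 1 to 4, so that Male replicate 2 barely exceeded 2 of the females. Hist3h2ba, the H2B gene beside Hist3h2a, was at 3.20, 5.89, 3.18 and 3.54 CPM in the males and 4.65, 3.69, 4.46 and 3.02 CPM in the females. Hist2h2be, whose product is known in mouse as an H2B variant of olfactory neurons, was the only tested member below the median of the others in Male replicate 2: 5.03, 3.53, 3.71 and 3.84 CPM in the males and 4.14, 3.81, 3.65 and 4.19 CPM in the females. Its counted sequence is 2620 bases long and shares no 50-base window with another gene. The tested member with the longest counted sequence, Hist1h2be with 4374 bases, had a ratio of 1.33. At lower levels, Hist1h2bj was at 0.918, 3.32, 1.15 and 1.00 CPM in the males and 1.50, 1.33, 1.52 and 0.933 CPM in the females, whereas Hist1h2bk reached 2.62 CPM in Male replicate 2 and 2.69 CPM in Female replicate 3, its highest library.

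Of the H3 genes, Hist1h3c was the highest, with 12.1 CPM per kb. It was at 5.64, 8.04, 4.73 and 5.54 CPM in Male replicates 1 to 4, and at 6.86, 5.76, 6.69 and 4.02 CPM in Female replicates 1 to 4. Hist1h3e was at 1.60, 5.97, 1.06 and 2.30 CPM in the males and 2.27, 1.87, 2.69 and 0.860 CPM in the females, and Male replicate 2 stands well above the rest. Hist1h3h (3.07 CPM per kb) and Hist1h3a (1.74) were 2.45 and 3.17 times the median of the other libraries in Male replicate 2.

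Gene by gene over the 44 tested members, the ratio of Male replicate 2 to the median of the other 7 libraries ran from 0.919 to 8.57, with a median of 2.66 and quartiles of 1.74 and 3.66. For all 16377 genes tested the median was 0.986 and the quartiles were 0.771 and 1.32. Male replicate 2 was the highest library for 40 of 44 members (31.9% of all genes tested) and at least 2 times the median for 31 of 44 (7.78% of all genes tested). By type the median ratio was 4.47 for the 4 tested H1 genes, 2.92 for 9 H3, 2.66 for 10 H4, 2.62 for 11 H2A and 2.12 for 10 H2B genes. Of the other 7 libraries, Female replicate 3 was the highest for 24 of 44 members, and over all 8 the lowest was Female replicate 4 for 22 and Male replicate 3 for 15. Because the members were picked with the level of Male replicate 2 known, these counts are descriptions, and the shares over all genes are given only for scale.

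**Figure D3:**
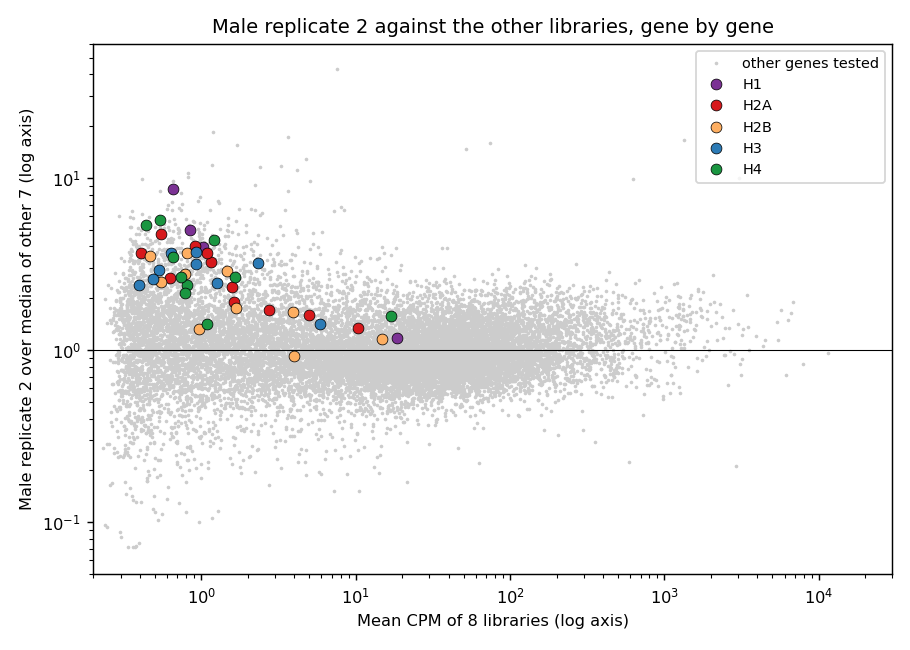
Level in Male replicate 2 divided by the median of the other 7 libraries (log axis) against mean CPM (log axis), for the 44 tested members coloured by type and for the other genes tested in grey. Members with low mean CPM lie mostly between 2 and 6, those above 3 CPM between 1 and 2 except Hist2h2be at 0.919, and Hist1h1b is the highest member at 8.57.

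Counted length moved with this ratio across all genes, and the members are short. Among tested genes that are not members, the median ratio was 1.47 for the 1335 genes with under 1000 counted bases, with quartiles of 0.992 and 2.11, and 0.922 for the 7512 genes with 4000 bases or more. The 39 members with under 1000 bases had a median of 2.77, and 3 members with 2000 to 4000 bases had a median of 1.34. Mitochondrially encoded RNA took 0.707% of counts in Male replicate 2 and 0.999% to 1.72% in the others, a share carried by a few genes such as mt-Co1 (664 CPM against 1895 to 5004 CPM). Gene by gene, the 29 tested mitochondrial genes had a median ratio of 1.51 in Male replicate 2, and 16 of them were highest there. Ordered by summed histone CPM from high to low, the libraries had mitochondrial shares of 0.707%, 1.05%, 0.999%, 1.30%, 1.31%, 1.41%, 1.58% and 1.72%. Whether length, or what the mitochondrial share stands for, has a part in the histone levels was not tested.

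Other RNAs that end without a poly(A) tail, mostly small nucleolar RNAs, summed to 149.7 CPM in Male replicate 2 against 52.9 to 84.3 CPM in the other libraries. Of this list of 181 genes, 35 were tested, and their median ratio was 1.14, with a range of 0.0723 to 17.3; 6 of the 35 were at least 2 times the median in Male replicate 2. Rpph1, the RNA part of RNase P, was at 30.3 CPM there against 1.85 to 8.92 CPM, and Snord104, which guides methylation of ribosomal RNA, was at 25.6 CPM against 6.49 to 13.4 CPM. Snora57 was at 19.9 CPM against 6.04 to 17.3 CPM. The labels do not state whether RNA with a tail was selected, and the part of such a step was not tested.

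The stem-loop that ends these mRNAs was searched in the GENCODE M21 transcripts of the members, as a 16-base run with arms of 6 paired bases around a loop of 4 (letters GGNNNTNNNNANNNCC on the transcript strand, with a pyrimidine at positions 3 to 5 and its partner across the stem). It was found for 44 of 65 members, against 70 of 41155 other protein-coding transcripts of 300 to 3000 bases (0.170%). A stem-loop past the end of an annotated transcript would be missed, so a member without a match here may still have one. The commonest form, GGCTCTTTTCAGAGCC, was in 24 members, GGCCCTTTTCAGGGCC was in 7 and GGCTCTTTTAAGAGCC in 6. The sites of members with high levels and of members with a high ratio are shown to let their letters be compared; capitals mark the stem-loop, the coordinates on GRCm38 are those of the capitals, and the sign gives the strand.
Hist1h1c, chr13:23739512-23739527, +: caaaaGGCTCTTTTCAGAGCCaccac
Hist1h4i, chr13:22040966-22040981, -: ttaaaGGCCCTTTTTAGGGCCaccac
Hist3h2a, chr11:58955172-58955187, +: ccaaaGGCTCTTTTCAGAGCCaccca
Hist1h3c, chr13:23745047-23745062, -: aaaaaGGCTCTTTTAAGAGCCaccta
Hist1h2ae, chr13:23570668-23570683, -: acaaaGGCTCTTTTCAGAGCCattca
Hist1h4f, chr13:23551291-23551306, -: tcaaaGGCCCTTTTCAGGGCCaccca
Hist2h2ac, chr3:96220418-96220433, -: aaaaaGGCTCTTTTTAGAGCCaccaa
Hist4h4, chr6:136803998-136804013, -: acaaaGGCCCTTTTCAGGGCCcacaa

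The members differed in how far the counted sequence runs past this site. It ended within 63 bases of the stem-loop in 23 tested members, whose ratio had a median of 2.89 and a range of 1.42 to 5.71. In 10 tested members it ran 100 bases or more past the stem-loop, with a median ratio of 1.90 and a range of 1.18 to 5.36. The ratio was at least 2 in 5 of these 10, and in 18 of the 23 above. The 10 include Hist1h1c (840 bases past), Hist1h4i (330), Hist3h2a (1643) and Hist3h2ba (169). These named genes are also among the 8 members with the highest mean CPM, so level and length past the site are not separate here. The 11 tested members without the run of letters in their transcripts had a median of 2.49, with Hist2h2be at the low end and Hist1h1b at the high end. Several of these transcripts are annotated as short, such as Hist1h2bn (381 bases), Hist1h2af (399) and Hist1h3h (411). This class may thus reflect where the annotation ends and does not show that the genes lack a stem-loop. Several members go against the order of the medians. Hist1h3e, for example, runs 369 bases past the site with a ratio of 3.19. Hist4h4 runs 2445 bases past with a ratio of 5.36, but it passed the filter on low counts only with Male replicate 2 included. The letters AATAAA, the usual poly(A) signal, followed the stem-loop within the annotated transcript in 10 tested members with a median ratio of 1.90. They were absent there in 23 with a median of 2.89. Absence can reflect a transcript annotated to end soon after the site. This split shares most of its members with the one by length, so it is not a separate observation. These classes were set after the values were seen and have no test.

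Promoters of 60 members were read from RefSeq on GRCm38.p6, from 250 bases before to 50 after the start, and searched on both strands for CCAAT, for the TATA box written TATAAA and for the octamer ATTTGCAT, none of which contains another. The letters CCAAT, bound by the factor NF-Y, were in 51 of 60 members (85.0%) and in 37.4% of all 32851 promoters. It was in each of the 6 H1, 18 H2A, 14 H2B and 10 H3 promoters, and in 3 of 12 H4 promoters. TATAAA was in 35 of 60 (58.3%, against 13.6% of all promoters). This counts the letters on either strand and anywhere in the window. A match therefore need not be a TATA box of that gene. The octamer, known from H2B promoters, was in 12 of 60 (20.0%, against 1.74%): 7 of 18 H2A, 5 of 14 H2B and none of the H1, H3 and H4 promoters. Neighbouring H2A and H2B genes start head to head and share promoter sequence, so their counts are not independent. Shown with the motif letters in capitals, in the orientation of the gene, are the 150 bases before the start of Hist1h1b, Hist1h2ae and Hist1h4i. Hist1h1b had the highest ratio, and Hist1h4i lacks CCAAT. Hist1h2ae holds the letters of all 3 motifs, but TATAAA and the octamer only on the opposite strand. Its neighbour Hist1h2bg holds these same TATAAA and octamer letters on its own strand.
Hist1h1b, chr13:21780626-21780775, -: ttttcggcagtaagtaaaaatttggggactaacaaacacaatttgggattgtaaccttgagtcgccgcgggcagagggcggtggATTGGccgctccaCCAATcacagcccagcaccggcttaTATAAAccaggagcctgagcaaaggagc
Hist1h2ae, chr13:23571221-23571370, -: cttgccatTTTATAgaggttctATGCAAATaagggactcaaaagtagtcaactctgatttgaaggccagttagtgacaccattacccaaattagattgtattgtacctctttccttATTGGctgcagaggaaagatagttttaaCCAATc
Hist1h4i, chr13:22041363-22041512, -: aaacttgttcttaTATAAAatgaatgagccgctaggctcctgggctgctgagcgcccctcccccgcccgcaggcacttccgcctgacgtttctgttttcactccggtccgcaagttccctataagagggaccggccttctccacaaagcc
In the first of these, CCAAT and its complement ATTGG lie close together before the TATAAA. A match in these windows is a description of letters and not of binding.

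Many members are near copies of each other, which makes the levels of those members uncertain. In 30 of 65 members over 50% of the 50-base windows of the transcript also occur in another gene, in Hist2h2aa2 all of them do, and in 5 members none does. No source used here says what was done with reads that fit more than 1 gene. The 18 tested members with over 50% shared windows had a median of the mean CPM of 1.09, with the highest at 2.74, against a median of 0.927 and a highest of 18.4 CPM among the 26 with less. Both sets hold only members that passed the filter on low counts, as 18 of the 30 did. Their medians therefore cannot show how shared sequence bears on level. Among the members with 0 counts, shared windows made up 100% in Hist2h2aa2, 97.3% in Hist1h2bq, 96.3% in Hist2h2aa1 and 79.7% in Hist2h3b. They made up 38.2% in Hist1h2ba, 34.7% in Hist2h3c1 and 2.3% in Hist1h2aa, and Hist2h2bb had none. Exons of Hist1h2aa and Hist2h2bb overlap another listed gene, for Hist2h2bb also on its own strand. The part of shared or overlapping sequence in these values was not tested. Levels of members with much shared sequence, such as Hist1h3h (93.9%), Hist1h2bn (86.4%) and Hist1h2af (79.7%), are uncertain for this reason.

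**Figure D4:**
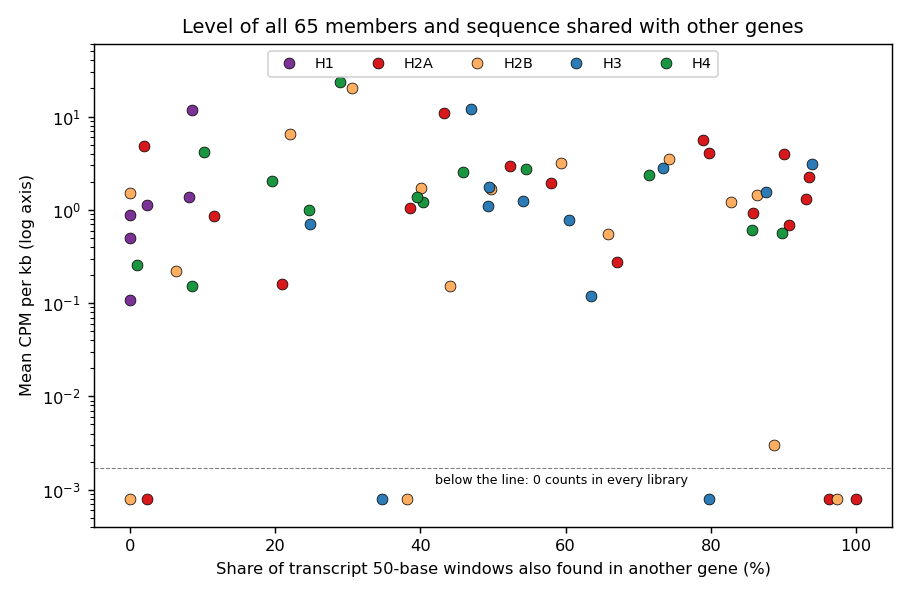
Mean CPM per kb (log axis) of all 65 members against the share of 50-base transcript windows also found in another gene; the 8 members under the dashed line had 0 counts in every library. The members with the highest levels share under 50% of their windows, and those with 0 counts are spread from 0% to 100%.

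Male and female hearts were compared in 1 fit over all 16377 genes tested. Of the 44 tested members 0 differed between the sexes at an adjusted p below 0.05 in edgeR's quasi-likelihood test, where 0.0366% of all genes tested did (6 genes, 0.0305% higher and 0.00611% lower in males). DESeq2 called 0 members, against 0.0301% of all genes it tested, and limma-voom called 0, against 0.0427%. At an unadjusted p below 0.05 edgeR had 3 of the 44 members, where 2.24% of all genes tested passed. The smallest adjusted p of a member in edgeR was 0.9995. Fitted values were higher in males for 40 of 44 members, with a median log2 fold change of 0.44, against 0.01 for all genes tested. Without Male replicate 2 they were higher in males for 13 of 43 members and lower for 30, and the median was -0.13, against 0.00 for all genes. The direction over the list thus turned on 1 library.

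**Figure D5:**
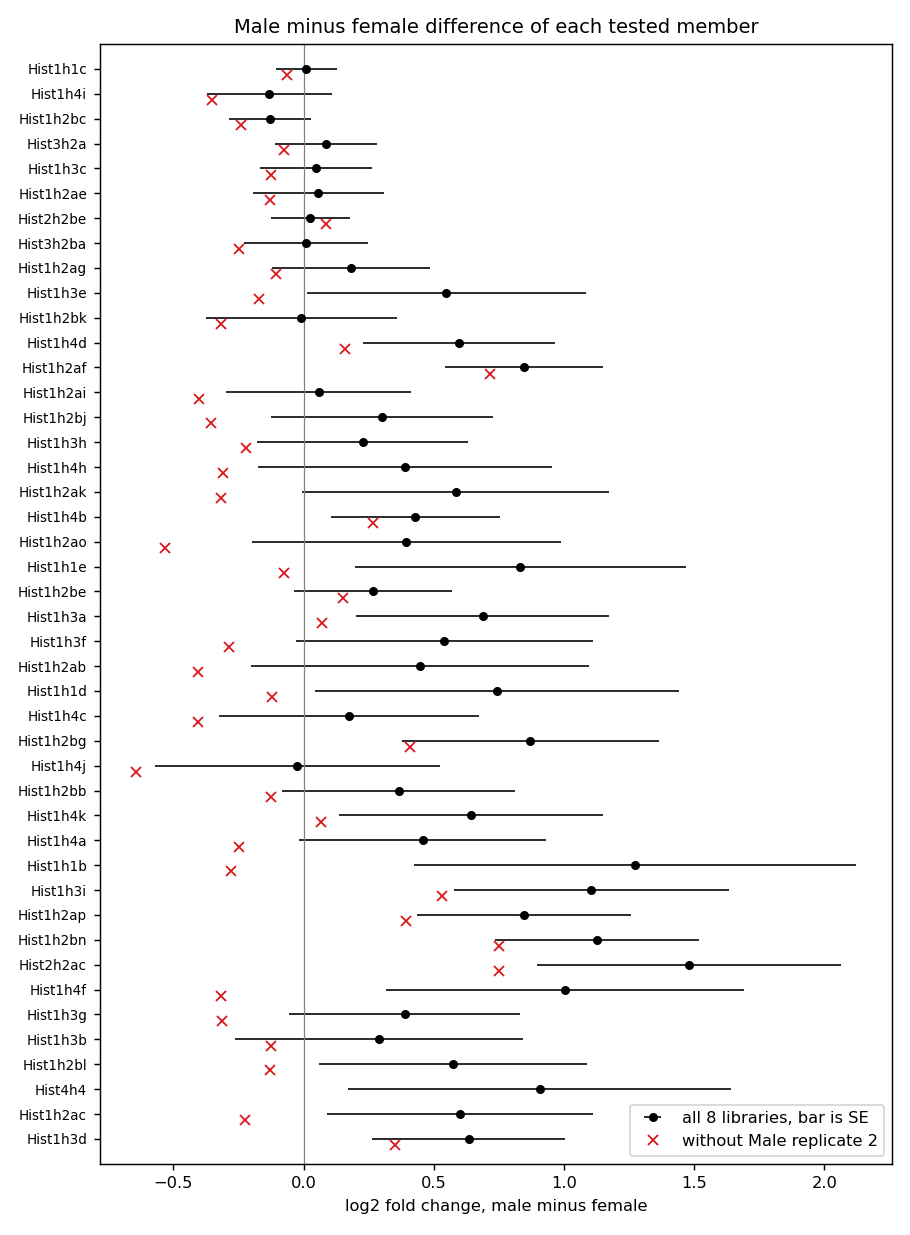
Fitted log2 fold change, male minus female, of the 44 tested members with its standard error (black), and the same without Male replicate 2 (red crosses). With 8 libraries 40 of 44 points lie above 0, and without Male replicate 2 only 13 of 43 do.

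The 3 members with the smallest p-values were Hist1h2bn, Hist1h2af and Hist2h2ac, and all 3 had higher fitted values in males. Hist1h2bn, an H2B gene, was at 0.544, 1.25, 0.619 and 0.600 CPM in Male replicates 1 to 4, and at 0.187, 0.504, 0.355 and 0.329 CPM in Female replicates 1 to 4. It was the only tested member whose groups did not overlap (2.25% of all genes tested), and its log2 fold change was 1.13 ± 0.39 (SE), with an edgeR p of 0.0177 before and 0.9995 after adjustment. Hist1h2af had a log2 fold change of 0.85 ± 0.30 and Hist2h2ac one of 1.48 ± 0.58, with edgeR unadjusted p-values of 0.0205 and 0.0311 and the same adjusted p. For the 4 members with the highest mean CPM the estimates were near 0 with small errors: 0.01 ± 0.12 for Hist1h1c, -0.13 ± 0.24 for Hist1h4i, -0.13 ± 0.16 for Hist1h2bc and 0.09 ± 0.20 for Hist3h2a. Hist1h4j (-0.02 ± 0.55) and Hist1h2bk (-0.01 ± 0.37) were the other members with a fitted value below 0. The widest error was that of Hist1h1b, 1.27 ± 0.85, whose male SD of 1.17 CPM exceeds its male mean of 0.892 CPM.

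For the histone genes outside the clusters the median ratio of Male replicate 2 lay closer to 1 than for the tested members, but their levels were higher. Of 11 such genes, all tested, 0 passed the test between the sexes; 2 had higher and 9 lower fitted values in males, and the median log2 fold change was -0.14. Their median ratio was 1.11, with a range of 0.581 to 2.78. H2afz, which encodes H2A.Z, was at 619 CPM in Male replicate 2 against 628 to 761 CPM in the others, H3f3b, which encodes H3.3, at 323 against 323 to 388 CPM, and H2afx, the DNA damage variant H2A.X, at 265 against 268 to 332 CPM. H1fx and H2afj, picked after their values were seen, were the 2 genes of this list that were at least 2 times the median: H1fx was at 416 CPM in Male replicate 2 against 96.5 to 227 CPM, and H2afj at 161 against 49.7 to 88.8 CPM.

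Genes of histone mRNA production had ratios on both sides of 1, from 0.570 to 1.60. Of 17, 0 passed the test between the sexes, 7 had higher and 10 lower fitted values in males, and the median ratio in Male replicate 2 was 0.904. Slbp, the stem-loop binding protein, was at 32.4 CPM in Male replicate 2 against 46.9 to 59.5 CPM in the others, its lowest library. Lsm11, a protein of the U7 particle that cuts the 3′ end, was at 37.3 CPM against 26.2 to 29.4 CPM, its highest. Npat, the coactivator of histone transcription, was at 17.7 CPM against 15.6 to 21.5 CPM. Among the genes of the list with the most counts, the processing scaffold Sympk was at 358 CPM against 199 to 249 CPM, Srrt at 238 against 207 to 228 CPM, and the decay factor Upf1 at 220.3 against 146 to 177 CPM.

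The summed level of S phase genes was lowest in Male replicate 2, where that of the clustered histone genes was highest; the difference was not tested. Summed over 23 genes the level was 2123 CPM there, against 2347 to 2714 CPM in the other libraries, and the median ratio was 0.753. Pcna, the clamp of the replicating polymerases, was at 157 CPM against 195 to 262 CPM, whereas the helicase subunits Mcm7 and Mcm6 were at 253 against 245 to 278 CPM and 258 against 214 to 242 CPM. Between the sexes 0 of the 23 passed the test; 2 had higher and 21 lower fitted values in males, and the median log2 fold change was -0.12. The 10 histone chaperones had a median ratio of 0.914, and 0 passed the test between the sexes, with 2 higher and 8 lower in fitted value in males. Nap1l1 was at 861 CPM in Male replicate 2 against 648 to 869.6 CPM, Nasp at 422 against 359 to 432 CPM and Nap1l4 at 176 against 235 to 302 CPM.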

How the data were processed

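Whole-number counts per gene, 1 table per library, were deposited by the authors for 4 male and 4 female libraries; the values in these tables are not normalized. The submitters' processing notes name Trimmomatic 0.36, STAR 2.5.2b, featureCounts, Subread 1.5.2 and the build GRCm38 (mm10). Annotation release, strandedness of counting and handling of multi-mapped reads were not given in the sources used here. A deposited table of normalized signal, with 16460 genes, served for 1 alternative. Symbols could be assigned to 48970 of 49315 gene identifiers; 2 further names of the pattern were not analysed here.

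The members and lists were chosen with earlier results of these data known. All genes were fitted with edgeR 4.0.16 in R 4.3.3 for male minus female with no covariate: genes passed filterByExpr at a count of at least 10, were scaled by TMM and went through the robust, 2-sided quasi-likelihood test. Benjamini-Hochberg adjustment ran over all 16377 genes tested. DESeq2 1.42.0 and limma-voom (limma 3.58.1) were alternatives, beside other scalings and filters, the replicate number as a block and leaving out each library. Levels are TMM-scaled CPM, also per kb of the counted length. No 2 replicates agreed within sampling noise, and Male replicate 2 lay furthest from its group. The chi-square per gene between replicates was 124 to 192 for Male replicate 2 with each other male. Among the other males it was 7.93 to 18.9, and between females it was 22.0 to 87.1. These values cover all genes with enough counts, not the members alone. Total counts were 20105913 to 51134291 per library, which limits members near 1 CPM to low counts in each library. Sequences came from GENCODE M21 transcripts and RefSeq promoters; sites were matched by letters only.

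Named are, per histone type, the 4 tested members with the highest CPM per kb; the tested members of clusters 2 to 4; the 3 with the smallest p in each direction; the 5 highest and 5 lowest ratios of Male replicate 2; the members whose sequence is printed; and, of each other list described, the 3 genes with the highest CPM with Slbp, Npat, Lsm11 and H2afx. The members with 0 counts, Hist1h1t, H1fx and H2afj were named after their values were seen, as were the foregut markers and mt-Co1; other cell type marker lists are given by sums alone.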

Additional observations from a re-analysis of the deposited data

Results flagged for a closer look

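Within the 4 male libraries, the gap between Male replicate 2 and the other males passed Dixon's 95% critical value for the summed H4 level and for 6 of the named members. The summed H4 level was 43.7 CPM in Male replicate 2, against 19.3 to 22.2 CPM in the other males. Hist1h4i was at 22.9 CPM there, against 13.1 to 14.4 CPM. Hist3h2ba was at 5.89 CPM, against 3.18 to 3.54 CPM, and Hist1h2bj at 3.32 CPM, against 0.918 to 1.15 CPM. Hist1h1b was at 2.65 CPM, against 0.267 to 0.340 CPM. Hist1h2bn was at 1.25 CPM, against 0.544 to 0.619 CPM, and Hist1h4f at 1.98 CPM, against 0.177 to 0.367 CPM. Of the 70 groups of 4 looked at, 7 passed, all through Male replicate 2. The high level of that library was known when the members were chosen. Some members, Hist1h1b and Hist1h4f among them, were also named for a high ratio in that library. These values are thus a description and not a test. The rate of about 1 in 20 groups that chance gives does not apply to them.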

How the results depend on the processing

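No member passed the threshold between the sexes under any alternative run, and the number of all genes called lay between 5 and 9. Leaving out 1 library in turn gave a median log2 fold change of the tested members of -0.129 to 0.675 (main value 0.439); the value of -0.129 is that without Male replicate 2. A filter at 1 CPM in 4 libraries gave a median of 0.098. The summed level in Male replicate 2 over the median of the others (1.69) was 1.48 with library size alone, 2.17 without the 3 members with the highest mean CPM, and 1.69 to 1.78 with another library left out. Ranked by CPM per kb, H1 was 5, H2A 3, H2B 2, H3 4 and H4 1; by CPM, H2B was 1, H2A 2, H4 3, H1 4 and H3 5. Of 178 fold changes of the 27 named members under alternatives that keep all libraries, 169 kept their sign and 9 did not: Hist1h1c was -0.029 with library size alone and -0.012 with no filter, Hist2h2be -0.001 with library size alone, Hist3h2ba -0.047 with library size alone and -0.012 with no filter, and Hist1h2bk 0.000 with RLE factors, 0.075 with limma-voom and 0.011 with the filter at 1 CPM; the ninth is given with the block. Leaving out 1 library moved the log2 fold change across 0 for 17 named members: Hist1h1c (-0.064 to 0.074), Hist3h2a (-0.074 to 0.211), Hist1h3c (-0.125 to 0.145), Hist1h2ae (-0.129 to 0.240), Hist2h2be (-0.098 to 0.086), Hist3h2ba (-0.248 to 0.109), Hist1h2ag (-0.105 to 0.358), Hist1h3e (-0.171 to 0.806), Hist1h2bk (-0.318 to 0.271), Hist1h2bj (-0.356 to 0.492), Hist1h3h (-0.222 to 0.484), Hist1h4h (-0.308 to 0.735), Hist1h1e (-0.073 to 1.17), Hist1h1d (-0.121 to 1.22), Hist1h4j (-0.644 to 0.302), Hist1h1b (-0.279 to 1.79) and Hist1h4f (-0.318 to 1.30). Beyond the smaller number of samples, the cause of these shifts was not tested. Hist4h4 has no value without Male replicate 2, as it then failed the filter on low counts.

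No positive link was seen between same-numbered libraries: the correlation of their deviations was -0.417, -0.0752, -0.327 and -0.00616. The litters are not stated, so these values cannot settle whether the replicate numbers pair the samples. With the replicate number as a block, 0 members and 5 of all genes were called, the median log2 fold change of the members was 0.273, and that of Hist3h2ba was -0.020. With 20105913 to 51134291 counts per library, members below about 1 CPM rest on few counts. Over the tested members, the standard errors of the log2 fold changes ran from 0.12 to 0.85, and differences above their standard error, such as those of Hist2h2ac and Hist1h2bn, were not called.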
